A study of Mus musculus with 8 samples.

Results

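The genes described here are 28 mouse genes of cholesterol and fatty acid synthesis, picked by name as enzymes of the pathways and as regulators of the SREBP transcription factors that drive them. All 28 were found among the 24421 gene names in the files, and all 28 passed the filter on low values, a level of at least 1 FPKM in at least 2 libraries, which left 12012 genes for testing. FPKM counts sequenced fragments after division by transcript length and library depth, so levels of different genes can be set side by side. By role, 7 of the genes belong to the mevalonate pathway, 10 to the steps after it up to cholesterol, 5 to SREBP regulation and sterol transport, and 6 to fatty acid synthesis. Total RNA of MCa-P1362, a mouse mammary adenocarcinoma line raised from a spontaneous tumour of a Balb/c female, was sequenced in 8 libraries. The cells were sorted on EpCAM, an epithelial adhesion protein, and the 4 groups of 2 libraries each are monoculture EpCAM+, monoculture EpCAM-, coculture EpCAM+ and coculture EpCAM-. All groups come from the same line with no treatment or engineered allele named in the labels, and all cells were grown in high glucose medium with fetal bovine serum. The protocol has sorted cells frozen straight away or regrown for a passage first, without saying which course monoculture and coculture stand for. Nothing in the labels says that the 2 libraries of a group came from separate cultures, so the p-values speak for the spread between the libraries at hand, and that spread may be technical.

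Cholesterol is built from acetyl-CoA through mevalonate and squalene, and fatty acids are built from the same acetyl-CoA through malonyl-CoA. Both routes are switched on by the SREBP proteins, which are held in the endoplasmic reticulum by INSIG when sterols are plentiful and carried by SCAP to the Golgi, where they are cut and freed to enter the nucleus. SREBP2 (gene Srebf2) acts mainly on the sterol genes and SREBP1 (gene Srebf1) mainly on the fatty acid genes, with NF-Y and Sp1 as common partners at the promoters. Mammary epithelium uses the fatty acid route for milk fat, and tumour cells of many tissues run it at a high rate.

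The promoters of 4 members are shown as examples and do not stand for all genes of the culture pattern described below. Hmgcs1, Fasn and Nsdhl fell in monoculture in both sorted fractions, and Mvk moved in opposite directions in them. Each sequence is the 250 bases before the RefSeq start of the gene on GRCm38.p6, written 5′ to 3′ on the gene's strand, with capitals marking the NF-Y box CCAAT on either strand (ATTGG on the other) and the sterol regulatory element TCACNCCAC.
Hmgcs1, chr13:119690101-119690350, plus strand: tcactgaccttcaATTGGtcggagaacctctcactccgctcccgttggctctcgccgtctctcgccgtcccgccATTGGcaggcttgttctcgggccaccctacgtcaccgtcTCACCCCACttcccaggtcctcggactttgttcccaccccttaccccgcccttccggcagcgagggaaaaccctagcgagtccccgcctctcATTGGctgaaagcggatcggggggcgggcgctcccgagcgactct
Fasn, chr11:120824548-120824797, minus strand: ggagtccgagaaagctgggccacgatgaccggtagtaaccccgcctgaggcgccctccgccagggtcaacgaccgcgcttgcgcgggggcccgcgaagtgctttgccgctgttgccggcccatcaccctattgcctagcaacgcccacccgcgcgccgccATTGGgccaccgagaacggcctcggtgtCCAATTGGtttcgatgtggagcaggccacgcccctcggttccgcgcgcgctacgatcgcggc
Nsdhl, chrX:72918271-72918520, plus strand: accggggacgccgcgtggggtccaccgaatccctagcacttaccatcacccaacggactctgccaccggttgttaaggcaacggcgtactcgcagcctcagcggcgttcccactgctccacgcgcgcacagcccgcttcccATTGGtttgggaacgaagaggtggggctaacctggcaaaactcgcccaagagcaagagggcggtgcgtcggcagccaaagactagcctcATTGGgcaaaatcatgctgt
Mvk, chr5:114444019-114444268, plus strand: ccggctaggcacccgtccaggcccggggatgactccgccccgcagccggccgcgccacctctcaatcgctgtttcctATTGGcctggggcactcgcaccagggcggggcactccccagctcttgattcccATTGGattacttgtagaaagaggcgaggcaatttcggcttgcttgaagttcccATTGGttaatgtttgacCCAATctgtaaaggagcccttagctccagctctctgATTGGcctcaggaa

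The Hmgcs1 window holds 3 NF-Y boxes and 1 sterol regulatory element, whose first base lies at -137 from the start. Mvk has 5 NF-Y boxes, Fasn has 3, of which a pair overlap in CCAATTGG with 1 on each strand, and Nsdhl has 2. Other genes that fell in monoculture in both fractions had fewer. Cyp51 had 1 NF-Y box, and the windows of Acat2 and Acaca held no NF-Y box and no sterol regulatory element. Whether the boxes bear on the fall was not tested. Over the 22 members in the RefSeq promoter table, 17 genes (77.27%) held CCAAT on either strand, against 40.76% of the 8995 tested genes in the table. The sterol regulatory element in this strict spelling was in 1 of the 22 members (4.55%), against 1.25% of the tested genes. GGGCGG, the Sp1 box, was in 81.82% of the members and 66.41% of the tested genes, and the E-box CACGTG was in 22.73% and 10.04%. The windows of the members were richer in G and C, with a median of 62.8% against 60.0% for tested genes. These are matches of letters in a fixed window and do not show binding.

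The sort was as labelled. The 6 epithelial marker genes fixed for the check summed to between 7730 and 7792 FPKM in EpCAM+ and between 14.2 and 15.8 FPKM in EpCAM- cells of monoculture, and to between 8603 and 8713 FPKM in EpCAM+ and between 26.8 and 27.4 FPKM in EpCAM- cells of coculture. The 7 stromal markers (collagens, Acta2, Bgn, Pdgfrb and Thy1) summed to 15.4 FPKM in EpCAM+ and between 11124 and 11194 FPKM in EpCAM- cells of monoculture, against between 184.7 and 185.2 FPKM in EpCAM+ and between 10832 and 10891 FPKM in EpCAM- cells of coculture. Over these markers, the level in EpCAM+ was at the median 0.134% of that in EpCAM- cells in monoculture and 1.72% in coculture. Fat cells, which make lipid at a high rate, left little trace: of 6 adipocyte markers, Adipoq, Cidec, Lep and Retn were at 0 in both libraries of each EpCAM- group, and the 6 summed to at most 2.57 FPKM in any library. Leukocyte and endothelial markers summed to at most 3.89 and 1.25 FPKM. The libraries' FPKM summed to between 387489 and 414612, and log2 values correlated at 0.998 within every group across genes.

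The 28 genes were all expressed in all 8 libraries, between 2.78 FPKM for Tm7sf2 in coculture EpCAM- and 326.6 FPKM for Scd2 in coculture EpCAM+. Their summed level was 1302 and 1311 FPKM in monoculture EpCAM+, 1292 and 1286 FPKM in monoculture EpCAM-, 1674 and 1664 FPKM in coculture EpCAM+, and 1612 and 1610 FPKM in coculture EpCAM- cells. Both fractions of monoculture thus lay below both fractions of coculture, without overlap, while within a culture the sums of the fractions lay close together. By group means, 13 genes were highest in coculture EpCAM-, 12 in coculture EpCAM+, 2 in monoculture EpCAM+ and 1 in monoculture EpCAM- cells. The lowest group was monoculture EpCAM+ for 14 genes and monoculture EpCAM- for 10. Replicate spread was small: a gene's largest coefficient of variation within a group was 2.97% at the median over the genes and reached 11.5% (Pmvk).

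**Figure D1:**
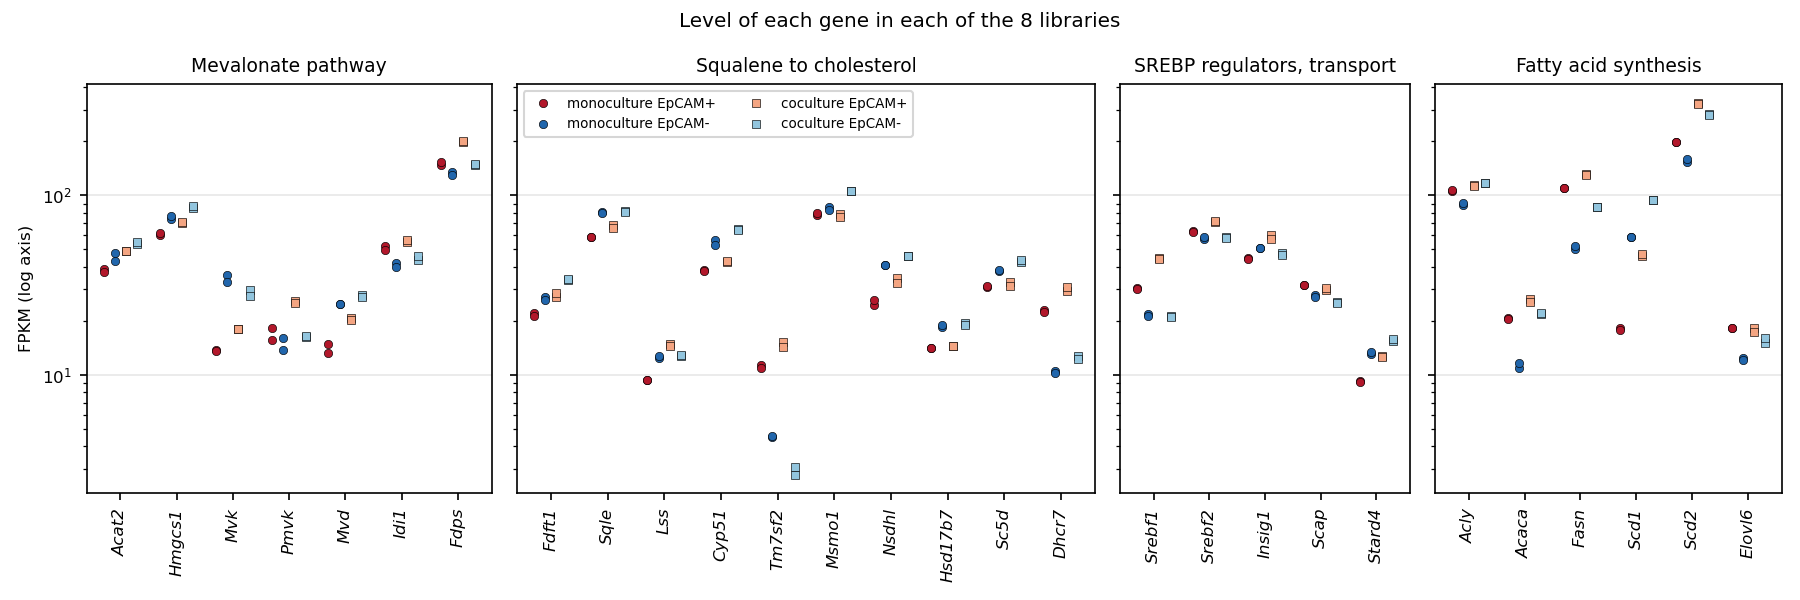
Level of each of the 28 genes in FPKM (log axis) by role, 1 symbol per library, with red for EpCAM+ and blue for EpCAM-, dark circles for monoculture and pale squares for coculture. Most genes keep within a narrow band across the 4 groups, while Tm7sf2 (2.78 to 15.2 FPKM) and Scd1 (17.8 to 94.0 FPKM) spread widely.

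The comparison of EpCAM+ with EpCAM- cells asks how the sorted fractions of the line differ. In both cultures Fasn, the sterol reductases Tm7sf2 and Dhcr7 and the regulator Srebf1 were higher in EpCAM+ cells, while most other enzymes between acetoacetyl-CoA and cholesterol, and the desaturase Scd1, were lower. In monoculture 12 of the 28 genes were higher and 15 lower at an adjusted p under 0.05 (limma, Benjamini-Hochberg), where 87.9% of all genes tested were called (55.4% higher, 32.4% lower). In coculture 14 were higher and 14 lower, where 87.2% of all genes were called (59.2% higher, 28.0% lower). With so many genes called, the count of called members is near the background, and the direction and size carry what can be said. The median log2 fold change of the 28 genes was -0.14 in monoculture and 0.06 in coculture, against 0.23 and 0.26 for all genes tested. Differences of at least 2-fold were 3 higher and 2 lower in monoculture, where 28.1% of all genes passed (15.5% higher, 12.6% lower), and 3 higher and none lower in coculture, where 26.5% passed (16.5% higher, 10.1% lower). Scd1 in coculture came just short of 2-fold lower on the scale of FPKM + 1, with a log2 fold change of -0.99 (46.7 against 94.0 FPKM on average). The direction was the same in both cultures for 24 genes, 11 higher and 13 lower, and 3 genes (Lss, Insig1 and Acly) were called in opposite directions. Among all genes tested, 48.83% were higher in both, 23.49% lower in both and 6.82% opposite. Fewer cells of a type and less RNA per cell cannot be told apart in these bulk libraries. Scaling by the median of ratios moves the median of all genes by -0.22 in monoculture and -0.26 in coculture, and quantile normalization by -0.15 and -0.25. Under the median of ratios the members split into 7 higher and 17 lower in monoculture and 6 and 17 in coculture, and under quantile normalization into 10 and 15 in each culture, while the share of higher among the called genes was 50.3% and 55.2% (63.1% unscaled) in monoculture and 49.9% and 50.7% (67.9% unscaled) in coculture. In both cultures and under every alternative fixed with the tests, 4 genes stayed higher (Tm7sf2, Dhcr7, Srebf1 and Fasn) and 11 stayed lower (Hmgcs1, Mvk, Mvd, Fdft1, Sqle, Cyp51, Nsdhl, Hsd17b7, Sc5d, Stard4 and Scd1).

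**Figure D2:**
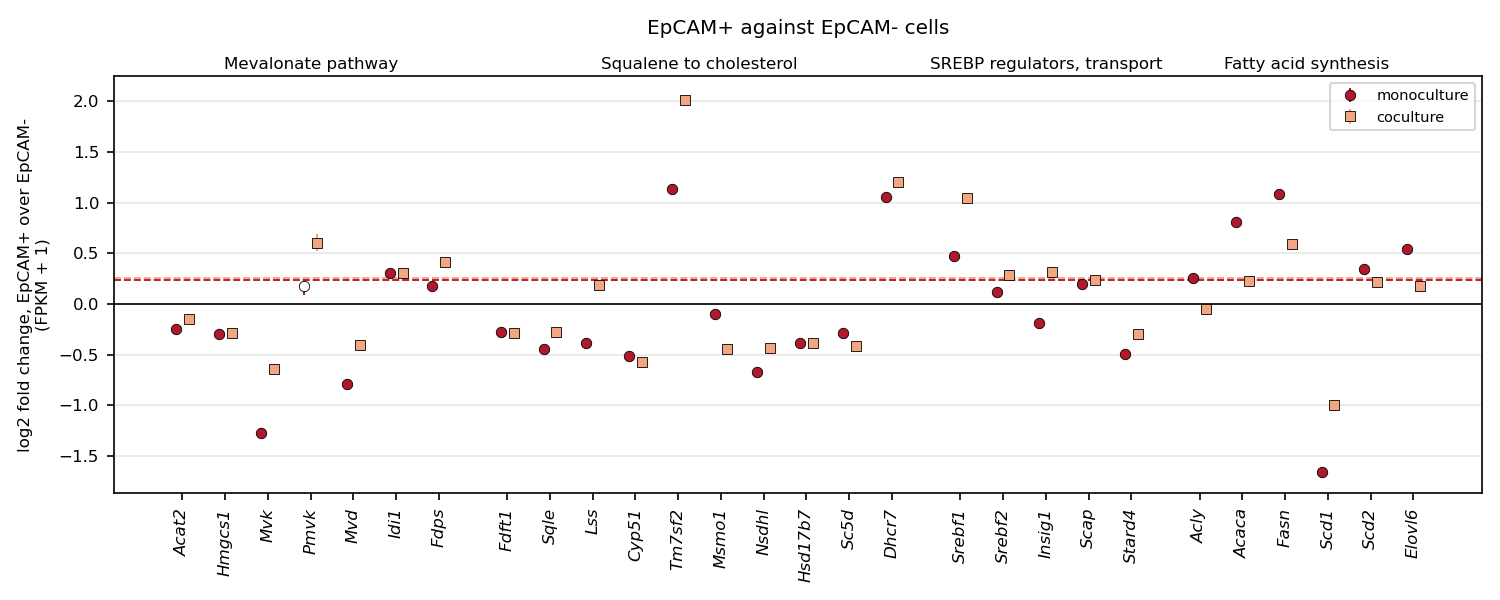
Log2 fold change of FPKM + 1, EpCAM+ over EpCAM-, for each gene by role, in monoculture (circles) and coculture (squares). Error bars are standard errors, mostly smaller than the symbols, an open symbol was not called, and dashed lines mark the median of all genes tested (0.23 and 0.26). Tm7sf2, Dhcr7 and Fasn lie well above the dashed lines and Scd1 and Mvk well below them.

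In the mevalonate pathway, 2 of 7 genes were higher and 4 lower in EpCAM+ cells of monoculture, and 3 were higher and 4 lower in coculture. Mvk, the kinase that phosphorylates mevalonate, stood at 13.8 and 13.6 FPKM in EpCAM+ and 36.1 and 33.1 FPKM in EpCAM- cells of monoculture, and at 18.1 and 18.0 FPKM in EpCAM+ and 29.8 and 27.6 FPKM in EpCAM- cells of coculture. The EpCAM+ libraries were all below the EpCAM- libraries, by a log2 fold change of -1.28 (limma, SE 0.05, adjusted p = 4.78e-08) in monoculture and -0.64 (limma, SE 0.05, adjusted p = 4.09e-06) in coculture. Mvd, which decarboxylates mevalonate diphosphate, had 13.2 and 14.9 FPKM in EpCAM+ and 24.9 and 24.8 FPKM in EpCAM- cells of monoculture, and 20.8 and 20.3 FPKM in EpCAM+ and 27.9 and 27.3 FPKM in EpCAM- cells of coculture. It too was lower in every EpCAM+ library of a culture, with log2 fold changes of -0.79 and -0.41. Hmgcs1, the synthase that makes HMG-CoA, was lower by about the same amount in both cultures, with log2 fold changes of -0.30 in monoculture and -0.29 in coculture and levels of 60.0 and 61.7 FPKM in EpCAM+ against 73.6 and 76.4 FPKM in EpCAM- cells of monoculture. The thiolase Acat2 was also lower, with log2 fold changes of -0.25 and -0.14. The call in coculture does not hold without coculture EpCAM+ replicate 1 (adjusted p = 0.0556, limma), without coculture EpCAM+ replicate 2 (adjusted p = 0.0595, limma) or without coculture EpCAM- replicate 2 (adjusted p = 0.0732, limma).

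Fdps and Idi1 of the mevalonate pathway went the other way in both cultures, and Pmvk did so in coculture. Fdps, which joins isoprene units to farnesyl diphosphate, was the most abundant member of the pathway, with 146.7 and 152.6 FPKM in EpCAM+ and 134.7 and 129.1 FPKM in EpCAM- cells of monoculture, and 197.8 and 200.6 FPKM in EpCAM+ and 148.1 and 149.4 FPKM in EpCAM- cells of coculture. The libraries of the fractions did not overlap, and the log2 fold change was 0.42 in coculture and 0.18 in monoculture, where it turns to -0.08 when scaled by the median of ratios. Idi1, the isomerase of isopentenyl diphosphate, was higher by 0.31 in both cultures, or by 0.05 and 0.02 and not called when scaled by the median of ratios. Pmvk, the second kinase of the pathway, was higher in coculture, with 25.9 and 25.0 FPKM in EpCAM+ against 16.3 and 16.5 FPKM in EpCAM- cells. In monoculture its libraries overlapped, with 15.5 and 18.3 FPKM in EpCAM+ and 16.0 and 13.7 FPKM in EpCAM- cells (log2 fold change 0.17, adjusted p = 0.0843, limma), and the difference passed the test without monoculture EpCAM+ replicate 1 (adjusted p = 0.0142, limma) or without monoculture EpCAM- replicate 1 (adjusted p = 0.0209, limma). That direction turns to -0.07 when scaled by the median of ratios.

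From squalene to cholesterol, 8 of 10 genes were lower in EpCAM+ cells of monoculture and 7 of 10 in coculture, with medians of -0.34 and -0.33. Nsdhl, a decarboxylase that helps strip methyl groups from lanosterol, stood at 24.6 and 26.1 FPKM in EpCAM+ and 41.0 and 40.7 FPKM in EpCAM- cells of monoculture, and at 34.5 and 32.7 FPKM in EpCAM+ and 45.8 and 45.7 FPKM in EpCAM- cells of coculture. Neither culture showed an overlap between fractions, and the log2 fold changes were -0.67 and -0.43. Cyp51, the lanosterol demethylase, was lower by about as much in both, with log2 fold changes of -0.51 and -0.57. The squalene synthase Fdft1, the squalene epoxidase Sqle, the ketoreductase Hsd17b7 and the desaturase Sc5d were lower in both cultures as well, with log2 fold changes between -0.44 and -0.28. Msmo1, the methylsterol oxidase, was lower by 0.45 on the log2 scale in coculture but only by 0.10 in monoculture, where the call is lost without monoculture EpCAM+ replicate 1 (adjusted p = 0.0523, limma).

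The reductases Tm7sf2 and Dhcr7 stood apart from these enzymes. Tm7sf2, a sterol reductase that removes the double bond at carbon 14, had 11.3 and 11.0 FPKM in EpCAM+ and 4.50 and 4.54 FPKM in EpCAM- cells of monoculture, and 15.2 and 14.4 FPKM in EpCAM+ and 2.78 and 3.05 FPKM in EpCAM- cells of coculture. Every EpCAM+ library was far above every EpCAM- library, with log2 fold changes of 1.14 (limma, SE 0.05, adjusted p = 1.12e-07) in monoculture and 2.01 (limma, SE 0.05, adjusted p = 3.65e-09) in coculture. Dhcr7, which makes cholesterol from 7-dehydrocholesterol, had 22.9 and 22.4 FPKM in EpCAM+ and 10.4 and 10.2 FPKM in EpCAM- cells of monoculture, and 29.5 and 30.9 FPKM in EpCAM+ and 12.7 and 12.3 FPKM in EpCAM- cells of coculture. Its fractions were again far apart, with log2 fold changes of 1.06 and 1.21. Sc5d, whose product Dhcr7 reduces, showed the opposite direction, so that the ratio of Dhcr7 to Sc5d was 0.737 and 0.717 in EpCAM+ and 0.275 and 0.267 in EpCAM- cells of monoculture, and 0.899 and 0.987 in EpCAM+ and 0.299 and 0.283 in EpCAM- cells of coculture. Lss, the cyclase that makes lanosterol, was lower in EpCAM+ cells of monoculture (log2 fold change -0.39) and higher in coculture (0.18), though the value in coculture turns to -0.09 under both the median of ratios and quantile normalization.

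Among the regulators, Srebf1 was higher in EpCAM+ cells of both cultures. It stood at 30.3 and 30.1 FPKM in EpCAM+ and 21.8 and 21.3 FPKM in EpCAM- cells of monoculture, and at 45.0 and 44.3 FPKM in EpCAM+ and 21.3 and 21.0 FPKM in EpCAM- cells of coculture. The log2 fold change was 0.47 (limma, SE 0.03, adjusted p = 4.52e-07) in monoculture and 1.04 (limma, SE 0.03, adjusted p = 3.61e-09) in coculture, with no overlap. Srebf2 varied little over the 4 groups, between 57.4 and 71.9 FPKM, and its log2 fold change was 0.29 in coculture (0.00 and not called when scaled by the median of ratios) and 0.11 in monoculture, where it turns to -0.14 when scaled by the median of ratios and to -0.01 by quantiles. The ratio of Srebf2 to Srebf1 was 2.08 and 2.08 in EpCAM+ and 2.64 and 2.75 in EpCAM- cells of monoculture, and 1.57 and 1.62 in EpCAM+ and 2.73 and 2.77 in EpCAM- cells of coculture. Scap, the escort of the SREBP proteins, was higher by 0.19 and 0.23 on the log2 scale, and these turn to -0.06 and -0.05 when scaled by the median of ratios and are 0.03 and not called by quantiles. Stard4, a carrier of cholesterol in the cytosol, was lower in both cultures, with 9.23 and 9.09 FPKM in EpCAM+ against 13.1 and 13.5 FPKM in EpCAM- cells of monoculture and a log2 fold change of -0.49, and -0.29 in coculture. Insig1, the sterol-sensing anchor, had 44.9 and 44.5 FPKM in EpCAM+ and 51.0 and 50.9 FPKM in EpCAM- cells of monoculture, and 59.8 and 57.4 FPKM in EpCAM+ and 47.6 and 46.3 FPKM in EpCAM- cells of coculture. It was lower in EpCAM+ cells of monoculture (log2 fold change -0.19) and higher in those of coculture (0.31, or 0.02 and not called when scaled by the median of ratios), without overlap in either.

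In fatty acid synthesis, 5 of 6 genes were higher in EpCAM+ cells of monoculture and 4 of 6 in coculture. Fasn, the synthase that builds palmitate, had 110.5 and 110.5 FPKM in EpCAM+ and 50.4 and 52.5 FPKM in EpCAM- cells of monoculture, and 131.1 and 129.1 FPKM in EpCAM+ and 86.2 and 86.2 FPKM in EpCAM- cells of coculture. Its log2 fold change was 1.09 (limma, SE 0.02, adjusted p = 1.73e-09) in monoculture and 0.59 (limma, SE 0.02, adjusted p = 8.28e-08) in coculture, and the fractions did not overlap. Acaca, the carboxylase that makes malonyl-CoA, had 20.7 and 20.4 FPKM in EpCAM+ and 11.0 and 11.7 FPKM in EpCAM- cells of monoculture, and 26.3 and 25.5 FPKM in EpCAM+ and 21.9 and 22.0 FPKM in EpCAM- cells of coculture. The log2 fold change was 0.81 in monoculture and 0.23 in coculture, where it turns to -0.05 when scaled by the median of ratios and is 0.02 and not called by quantiles. Acly, which makes cytosolic acetyl-CoA from citrate, was higher in monoculture by 0.26 on the log2 scale (0.00 and not called when scaled by the median of ratios) and lower in coculture by 0.05 on that scale. The difference in coculture loses its call (largest adjusted p = 0.159, limma) without each of the 4 coculture libraries and without either monoculture EpCAM+ library. Elovl6, which lengthens palmitate, was higher by 0.54 in monoculture and 0.18 in coculture, where it turns to -0.10 when scaled by the median of ratios and to -0.05 by quantiles.

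The desaturases Scd1 and Scd2, which put a double bond into stearate and palmitate and lie near each other on chromosome 19 (chr19:44394455-44407879, minus strand, and chr19:44293674-44306864, plus strand, GRCm38), went in opposite directions. Scd1 stood at 18.1 and 17.8 FPKM in EpCAM+ and 58.9 and 58.8 FPKM in EpCAM- cells of monoculture, and at 46.1 and 47.2 FPKM in EpCAM+ and 94.0 and 93.9 FPKM in EpCAM- cells of coculture. Scd2, the most abundant of the 28 genes, stood at 198.8 and 199.1 FPKM in EpCAM+ and 153.8 and 158.4 FPKM in EpCAM- cells of monoculture, and at 326.6 and 324.8 FPKM in EpCAM+ and 282.8 and 278.5 FPKM in EpCAM- cells of coculture. Scd1 had the lowest log2 fold change of the 28 genes in each culture, -1.66 (limma, SE 0.02, adjusted p = 1.27e-10) and -0.99 (limma, SE 0.02, adjusted p = 2.49e-09), while those of Scd2 were 0.35 in monoculture and 0.21 in coculture, and the value in coculture turns to -0.08 when scaled by the median of ratios. The ratio of Scd2 to Scd1, which a constant factor per library does not change, was 11.0 and 11.2 in EpCAM+ and 2.61 and 2.69 in EpCAM- cells of monoculture, and 7.08 and 6.88 in EpCAM+ and 3.01 and 2.97 in EpCAM- cells of coculture.

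The position of the genes moves with some of these results. Genes of chromosome 11, which holds Srebf1, Acly, Acaca and Fasn, had a median log2 fold change of 0.47 in monoculture and 0.50 in coculture, and those of chromosome 3, which holds Pmvk, Fdps and Elovl6, had 0.52 and 0.53, above the medians of all genes. Fasn in both cultures, Acaca in monoculture and Srebf1 in coculture lay above their chromosome's median, and Elovl6 in monoculture and Pmvk in coculture lay just above theirs. Acly in both cultures, Acaca in coculture, Srebf1 and Pmvk in monoculture, Elovl6 in coculture and Fdps in both cultures lay at or below it. The part of chromosome-wide shifts in these results was not tested.

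The comparison of monoculture with coculture asks how the same fraction differs between the cultures. In EpCAM+ cells of monoculture nearly the whole set was lower: 23 of 28 genes fell and 1 rose (Scap), where 51.4% of all genes tested were called (16.4% higher, 34.9% lower; limma, Benjamini-Hochberg). In EpCAM- cells 18 fell and 4 rose (Mvk, Tm7sf2, Insig1 and Scap), where 62.7% of all genes were called (32.4% higher, 30.3% lower). The median log2 fold change of the members was -0.35 in EpCAM+ and -0.17 in EpCAM-, against -0.06 and 0.00 for all genes. Most changes were under 2-fold: only Scd1 in EpCAM+ cells passed 2-fold, where 1.94% of all genes did (0.266% higher, 1.67% lower), and no member did in EpCAM- cells, where 4.52% of all genes did (2.56% higher, 1.96% lower). In both fractions 15 of the 28 genes (53.57%) fell, against 8.32% of all genes tested, and 3 (Mvk, Tm7sf2 and Insig1) were called in opposite directions, against 22.56% of all genes. Of the 15, 12 fell under every alternative fixed with the tests: Acat2, Hmgcs1, Fdps, Fdft1, Cyp51, Nsdhl, Dhcr7, Stard4, Acaca, Fasn, Scd1 and Scd2. The other 3 were Mvd, Idi1 and Acly. In EpCAM+ cells the share of higher among the called genes of the whole table was 32.0%, or 45.7% when scaled by the median of ratios and 54.7% under quantile normalization, and the members split into 2 higher and 21 lower or 2 and 23. The EpCAM+ fraction of coculture also held the higher level of stromal markers given above, 1.72% at the median of that in EpCAM- cells, against 0.134% in monoculture, and its part in the differences was not tested.

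**Figure D3:**
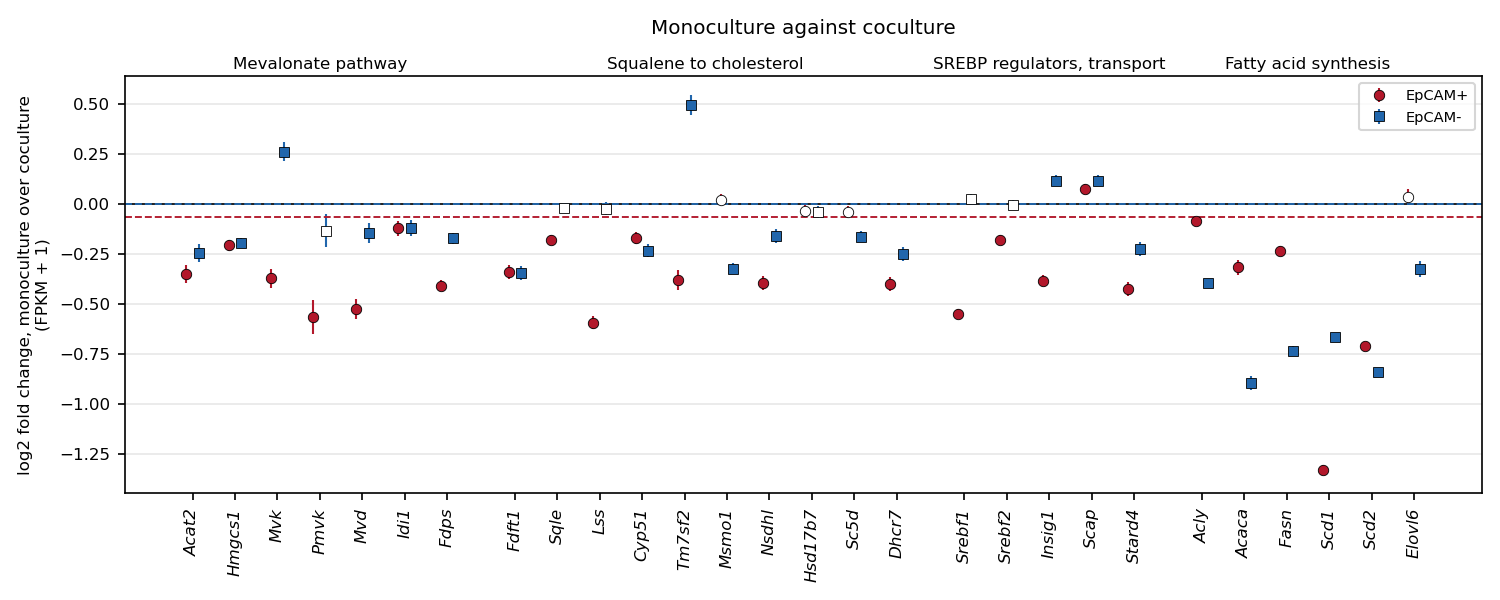
Log2 fold change of FPKM + 1, monoculture over coculture, for each gene by role, in EpCAM+ (circles) and EpCAM- cells (squares). Error bars are standard errors, an open symbol was not called, and dashed lines mark the median of all genes tested (-0.06 and 0.00). Most symbols lie below the dashed lines, with Scd1 in EpCAM+ cells at -1.33 and Acaca in EpCAM- cells at -0.90 the lowest of each fraction.

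All 7 genes of the mevalonate pathway fell in EpCAM+ cells of monoculture, with log2 fold changes from -0.56 to -0.12, and 5 fell in EpCAM- cells. Hmgcs1, whose promoter is printed above, fell to 60.0 and 61.7 FPKM in monoculture, against 69.9 and 70.9 FPKM in coculture, in EpCAM+ cells, and to 73.6 and 76.4 FPKM, against 85.0 and 87.1 FPKM, in EpCAM- cells. The log2 fold change was -0.21 in EpCAM+ (limma, SE 0.03, adjusted p = 5.38e-04) and -0.20 in EpCAM- (limma, SE 0.03, adjusted p = 4.16e-04), with no overlap between cultures. Fdps fell in EpCAM+ by 0.41 and in EpCAM- by 0.17 on the log2 scale, and Acat2 fell by 0.35 and 0.24. Pmvk fell by 0.56 in EpCAM+, while in EpCAM- cells its difference did not pass the test (log2 fold change -0.13, adjusted p = 0.206, limma), with 16.0 and 13.7 FPKM in monoculture and 16.3 and 16.5 FPKM in coculture, which do not overlap. Mvk went in opposite directions, with a log2 fold change of -0.37 (adjusted p = 5.26e-04, limma) in EpCAM+ and 0.26 (adjusted p = 0.00202, limma) in EpCAM- cells. Mvd fell by 0.52 in EpCAM+ cells, and its fall of 0.14 in EpCAM- cells loses its call without any of 6 libraries: each of the 4 EpCAM- libraries and each coculture EpCAM+ library (adjusted p up to 0.143, limma), and when scaled by the median of ratios (adjusted p = 0.0602). Idi1 fell by 0.12 in both fractions, a call lost in EpCAM+ without monoculture EpCAM+ replicate 2, coculture EpCAM+ replicate 1 or coculture EpCAM+ replicate 2 (adjusted p up to 0.168, limma) and when scaled by the median of ratios (-0.07), and in EpCAM- without monoculture EpCAM- replicate 2 or coculture EpCAM- replicate 2 (adjusted p up to 0.16, limma).

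From squalene to cholesterol, 7 of 10 genes fell in EpCAM+ cells of monoculture and 6 of 10 in EpCAM- cells. Nsdhl fell to 24.6 and 26.1 FPKM in monoculture, against 34.5 and 32.7 FPKM in coculture, in EpCAM+ cells, a log2 fold change of -0.39, and by 0.16 on that scale in EpCAM- cells. Fdft1 fell by 0.34 in both fractions, Dhcr7 by 0.40 in EpCAM+ and 0.25 in EpCAM- cells, and Cyp51 by 0.17 and 0.23. Lss fell in EpCAM+ cells alone of the fractions by the test, to 9.41 and 9.40 FPKM in monoculture, against 14.9 and 14.5 FPKM in coculture (log2 fold change -0.59), while in EpCAM- cells it had 12.5 and 12.7 FPKM in monoculture and 12.8 and 12.9 FPKM in coculture. Tm7sf2 fell in EpCAM+ cells (log2 fold change -0.38) and rose in EpCAM- cells (0.49). Msmo1 fell in EpCAM- cells, to 85.7 and 82.6 FPKM in monoculture, against 105.9 and 105.4 FPKM in coculture, while in EpCAM+ cells its values overlapped, with 77.4 and 79.2 FPKM in monoculture and 78.5 and 75.8 FPKM in coculture. Sc5d fell in EpCAM- cells alone by the test (log2 fold change -0.16). Sqle fell in EpCAM+ cells (-0.18) and had -0.02 and was not called in EpCAM- cells. Hsd17b7 was called in neither fraction, with log2 fold changes of -0.04 in each; the value in EpCAM+ turns to 0.02 when scaled by the median of ratios and to 0.07 by quantiles.

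Of the regulators, Srebf1, Srebf2, Insig1 and Stard4 fell and Scap rose in EpCAM+ cells of monoculture, whereas in EpCAM- cells only Stard4 fell, Insig1 and Scap rose and the SREBP genes did not pass the test. Srebf1 fell to 30.3 and 30.1 FPKM in monoculture, against 45.0 and 44.3 FPKM in coculture, in EpCAM+ cells (log2 fold change -0.55; limma, SE 0.03, adjusted p = 2.55e-06). In EpCAM- cells it had 21.8 and 21.3 FPKM in monoculture and 21.3 and 21.0 FPKM in coculture (log2 fold change 0.02, adjusted p = 0.448, limma). Insig1 fell by 0.38 in EpCAM+ cells and rose by 0.12 in EpCAM- cells on the log2 scale, and Stard4 fell by 0.42 and 0.22. Srebf2 fell by 0.18 in EpCAM+ cells and had a log2 fold change of 0.00 in EpCAM- cells. The increase of Scap was small, 0.08 in EpCAM+ and 0.12 in EpCAM- cells. In EpCAM+ its call is lost without any of the 4 EpCAM+ libraries or either coculture EpCAM- library (adjusted p up to 0.193, limma).

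All 6 fatty acid genes fell in EpCAM- cells of monoculture, with a median log2 fold change of -0.70, and 5 of 6 fell in EpCAM+ cells, with a median of -0.27. Their summed level was 472.6 and 473.4 FPKM in monoculture, against 662.1 and 656.5 FPKM in coculture, in EpCAM+ cells, and 374.6 and 383.6 FPKM, against 617.7 and 614 FPKM, in EpCAM- cells. Scd2 made up much of that difference, with 198.8 and 199.1 FPKM in monoculture, against 326.6 and 324.8 FPKM in coculture, in EpCAM+ cells, and 153.8 and 158.4 FPKM, against 282.8 and 278.5 FPKM, in EpCAM- cells. Its log2 fold changes were -0.71 (limma, SE 0.02, adjusted p = 1.94e-07) and -0.84 (limma, SE 0.02, adjusted p = 3.15e-08). Scd1 fell by more in EpCAM+ (log2 fold change -1.33; limma, SE 0.02, adjusted p = 1.98e-08) than in EpCAM- cells (-0.67; limma, SE 0.02, adjusted p = 1.92e-07). Fasn and Acaca did the reverse, with log2 fold changes of -0.23 and -0.32 in EpCAM+ and -0.73 and -0.90 in EpCAM- cells. Acly fell by 0.39 in EpCAM- and by 0.08 in EpCAM+ cells, where the call is lost without monoculture EpCAM+ replicate 1 (adjusted p = 0.0607, limma) or coculture EpCAM+ replicate 1 (adjusted p = 0.0627, limma) and when scaled by the median of ratios (-0.03). Elovl6 fell by 0.33 in EpCAM- cells, while in EpCAM+ cells it had 18.2 and 18.2 FPKM in monoculture and 18.2 and 17.4 FPKM in coculture (log2 fold change 0.03, adjusted p = 0.503, limma).

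**Figure D4:**
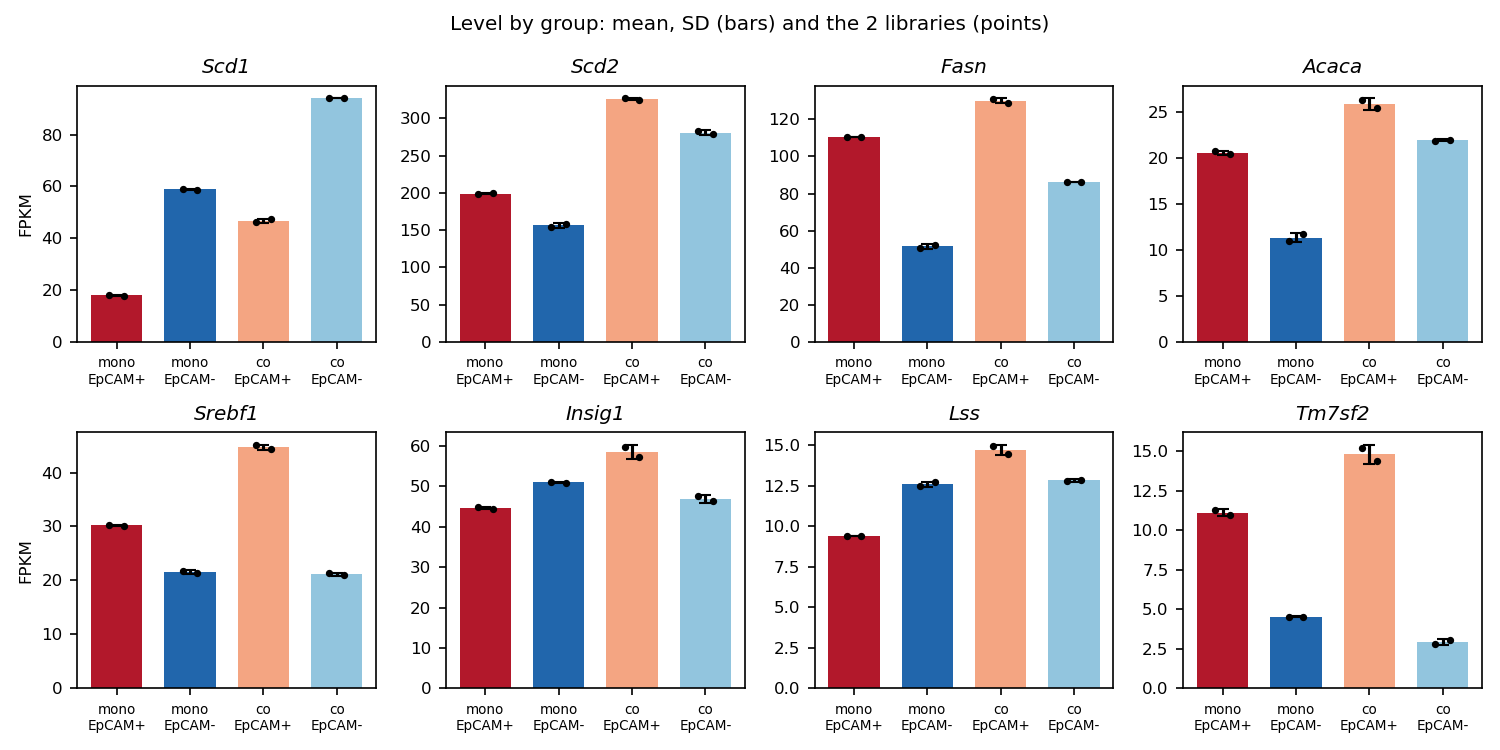
Level in FPKM of 8 of the genes in monoculture (mono) and coculture (co) EpCAM+ and EpCAM- cells: bars are means, error bars the SD and points the 2 libraries of each group. Scd1 is lower in EpCAM+ than in EpCAM- cells of either culture (17.97 against 58.8 FPKM on average in monoculture), Fasn and Srebf1 are higher, and Insig1 and Lss change order between the cultures.

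Whether the difference between fractions depended on the culture was tested as the log2 difference of EpCAM+ minus EpCAM- in monoculture minus that in coculture. It passed for 21 of the 28 genes, 7 positive and 14 negative, where 65.2% of all genes tested passed (26.0% positive, 39.2% negative), and no member reached 2-fold, as 8.09% of all genes did (2.43% positive, 5.66% negative). Under quantile normalization the members split into 7 and 12, and the share of positive values among all genes passing went to 53.4%, against 39.9% unscaled. The roles differed in sign: 5 of 6 fatty acid genes were positive, so that the excess in EpCAM+ was larger in monoculture, while 4 of 7 mevalonate genes and 4 of 5 regulators were negative and none of either was positive. Acaca had the highest value (0.58; limma, SE 0.05, adjusted p = 3.64e-05), with Fasn next (0.50; limma, SE 0.03, adjusted p = 8.86e-06). Tm7sf2 had the lowest (-0.88; limma, SE 0.07, adjusted p = 2.10e-05), and Scd1 was the fatty acid gene that went against the others (-0.66; limma, SE 0.03, adjusted p = 1.69e-06). Srebf1 (-0.57) and Insig1 (-0.50) were negative alike, Srebf1 through a larger excess in coculture and Insig1 through a change of order. Acat2, Hmgcs1, Idi1, Fdft1, Cyp51, Hsd17b7 and Scap did not pass, with values between -0.10 and 0.06. The calls of Dhcr7, Sc5d and Stard4 do not hold throughout. Dhcr7 (-0.15) loses its call without monoculture EpCAM+ replicate 2, monoculture EpCAM- replicate 1, coculture EpCAM+ replicate 2 or coculture EpCAM- replicate 2 (adjusted p up to 0.0943, limma), and also under quantile normalization (0.0702), when scaled by the median of ratios (0.0739) and when scaled to a constant sum (0.0521). Sc5d (0.12) loses it without any of the 4 monoculture libraries, coculture EpCAM+ replicate 2 or coculture EpCAM- replicate 2 (adjusted p up to 0.096, limma), and with limma's moderation without a trend (0.0575). Stard4 (-0.20) loses it under quantile normalization (-0.08, adjusted p = 0.16, limma).

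The way reads of overlapping genes and of near copies were counted is not given in the sources used here, so some levels are uncertain. Fdft1 is overlapped on the other strand by Ctsb, which stood at 44.1 and 43.2 FPKM in EpCAM+ and 144.4 and 142.6 FPKM in EpCAM- cells of monoculture, and at 74.3 and 75.3 FPKM in EpCAM+ and 183.1 and 183.4 FPKM in EpCAM- cells of coculture. Like Fdft1, it was higher in EpCAM- than in EpCAM+ cells of either culture and lower in monoculture than in coculture in either fraction. Tm7sf2 shares its strand and locus with Vps51 (8.67 to 14.1 FPKM), Cyp51 is opposed by Akap9 (3.35 to 8.71 FPKM) and Srebf1 by Rai1 (8.28 to 20.8 FPKM). Among near copies, Acat3 was at 3.42 to 5.83 FPKM and Scd3 at 1.33 to 4.79 FPKM, Scd4 stayed under 1.07 FPKM, and Idi2 was at most 0.0132 FPKM. The part of these neighbours in the members' levels was not tested.

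Other genes of the same routes, listed by function, were read beside the 28. Of 12 further genes of sterol and isoprenoid synthesis, 9 were higher and 1 lower in EpCAM+ cells of monoculture, and 9 higher and 2 lower in coculture. Among all genes tested, 55.4% were higher and 32.4% lower in monoculture, and 59.2% and 28.0% in coculture. In monoculture against coculture only 3 of the 12 fell and 1 rose in EpCAM+ cells, where 34.9% of all genes fell and 16.4% rose. In EpCAM- cells 2 fell and 2 rose, where 30.3% of all genes fell and 32.4% rose. Cyb5r3, a reductase that passes electrons to desaturases and sterol oxidases, was lower in EpCAM+ cells of both cultures. It stood at 63.5 and 61.4 FPKM in EpCAM+ against 137.3 and 132.8 FPKM in EpCAM- cells of monoculture (log2 fold change -1.10). The mitochondrial ferredoxin Fdx1 was higher by 0.43 in monoculture and 0.70 in coculture. Of 17 further genes of fatty acid synthesis tested, of 20 listed, 9 were higher and 7 lower in EpCAM+ cells of monoculture, and 10 and 7 in coculture. In monoculture against coculture 11 of the 17 fell and 1 rose in EpCAM+ cells, whereas 7 fell and 7 rose in EpCAM- cells. For these counts of the 17 the shares of all genes tested are those just given for the sterol genes. Elovl7, an elongase, was at 8.49 and 8.49 FPKM in EpCAM+ and 0.05 and 0.04 FPKM in EpCAM- cells of monoculture, and the dehydratase Hacd3 had log2 fold changes of 1.38 in monoculture and 1.09 in coculture. Among acyl-CoA synthetases, Acsl4, which prefers arachidonate, had 62.1 and 61.4 FPKM in EpCAM+ and 17.6 and 17.8 FPKM in EpCAM- cells of monoculture. Acsl1 went the other way, with 1.78 and 1.72 FPKM in EpCAM+ and 6.51 and 5.91 FPKM in EpCAM- cells. In coculture the means lay closer, 70.5 against 49.1 FPKM for Acsl4 and 2.16 against 3.07 FPKM for Acsl1. Acsl5 averaged 85.1 FPKM in EpCAM+ against 41.6 FPKM in EpCAM- cells of monoculture, and 94.1 against 40.2 FPKM in coculture. Acsl3 averaged 14.2 against 13.2 FPKM in monoculture and 23.4 against 17.9 FPKM in coculture.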

How the data were processed

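The authors deposited FPKM per gene for each of the 8 libraries. Per the submitters' processing notes, HISAT2, HTSeq, SAMtools, edgeR, cutadapt and FastQC were among the tools (no versions), with the build mm10. For the annotation, the strand setting and any scaling between libraries, details were not given in the sources used here. FPKM hold no read counts, and whole reads could not be recovered, so the depth is unknown and no counting intervals are given; the spacing of low values put relative depths between 0.914 and 1.165 of monoculture EpCAM+ replicate 1.

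Values were transformed to log2(FPKM + 1), which understates changes of low genes, and modelled in limma (3.58.1, R 4.3.3) as means of the 4 groups over all 8 libraries (4 residual degrees of freedom, eBayes with trend), for genes reaching 1 FPKM in 2 or more libraries. Tests were two-sided, with Benjamini-Hochberg adjustment over 12012 genes and calls at an adjusted p under 0.05. The fit was also run on simulated data with independent normal noise and few changed genes. That run cannot speak for the calls here, where most genes differ between fractions and the spread may be technical. Correlations of replicate deviations between groups were from -0.132 to 0.0496 over 8531 genes, which cannot settle whether replicate numbers pair libraries. Positions are from GENCODE (GRCm38), promoters from RefSeq (GRCm38.p6), matched for 22 of 28 genes by symbol. Other steps used Python (3.11.15) with pandas (2.3.3), NumPy (2.4.6) and matplotlib (3.10.9).

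The 28 genes and all lists were chosen with earlier results of these data known. All 28 are named; of each further list, up to 4 called genes with the largest change among those averaging at least 5 FPKM in the higher group are named. Not every gene taken by that rule is described here.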

Additional observations from a re-analysis of the deposited data

Results flagged for a closer look

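The difference between EpCAM+ and EpCAM- cells in monoculture minus that in coculture, a log2 difference tested in limma with Benjamini-Hochberg adjustment over all genes, passed for 21 of the 28 genes, and each is listed for that reason. Among the mevalonate genes it was -0.63 for Mvk, -0.43 for Pmvk, -0.38 for Mvd and -0.24 for Fdps. After squalene it was -0.16 for Sqle, -0.57 for Lss, -0.88 for Tm7sf2, 0.35 for Msmo1, -0.23 for Nsdhl, 0.12 for Sc5d and -0.15 for Dhcr7. The regulators had -0.57 for Srebf1, -0.18 for Srebf2, -0.50 for Insig1 and -0.20 for Stard4. The call of Stard4 is lost under quantile normalization (-0.08), and that of Dhcr7 under quantile normalization (-0.12), when scaled by the median of ratios (-0.11) and when scaled to a constant sum (-0.13). Fatty acid genes had 0.31 for Acly, 0.58 for Acaca, 0.50 for Fasn, -0.66 for Scd1, 0.13 for Scd2 and 0.36 for Elovl6. With 65.2% of all genes tested passing, the share of members passing was near the background.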

How the results depend on the processing

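The counts of called members ranged over the alternatives from 24 to 28 for EpCAM+ against EpCAM- in monoculture (27 as reported), 23 to 28 in coculture (28), 21 to 25 for monoculture against coculture in EpCAM+ (24), 20 to 22 in EpCAM- (22) and 19 to 21 for the interaction (21); leaving out a library in turn gave 27 to 28, 26 to 28, 21 to 24, 20 to 22 and 19 to 21. With 3 members at 2-fold or more when scaled by the median of ratios and 2 under quantiles, against 5, that count moved for EpCAM+ against EpCAM- in monoculture. With a pseudocount of 0.1, 562 genes passed 2-fold between cultures in EpCAM+ (233 as reported), 910 in EpCAM- (543) and 1613 in the interaction (972), and 1 member passed in the interaction (0 as reported); the cause was not tested.

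Scaled by the median of ratios, log2 fold changes changed sign between fractions in monoculture for Pmvk (-0.070), Fdps (-0.076), Srebf2 (-0.139) and Scap (-0.057), in coculture for Lss (-0.089), Scap (-0.049), Acaca (-0.054), Scd2 (-0.079) and Elovl6 (-0.097), and between cultures for Hsd17b7 (0.015) and Sc5d (0.013) in EpCAM+ and Sqle (0.000226) and Srebf2 (0.016) in EpCAM-. By quantiles it did so for Srebf2 in monoculture (-0.0057), Lss (-0.093) and Elovl6 (-0.049) in coculture, and Hsd17b7 between cultures in EpCAM+ (0.074). The cause was not tested. Leaving out a library in turn gave Msmo1 between -0.0035 and 0.046 between cultures in EpCAM+ (below 0 without coculture EpCAM+ replicate 2), and Srebf2 between -0.017 and 0.010 in EpCAM- (above 0 without monoculture EpCAM- replicate 1); neither was called.

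Whether the replicate numbers pair libraries is not known. With them as a replicate block, 27 members were called in each of the EpCAM+ against EpCAM- comparisons, 23 and 22 between cultures in EpCAM+ and EpCAM-, and 21 in the interaction; Acly in coculture (adjusted p = 0.055, limma) and Scap in EpCAM+ (adjusted p = 0.064, limma) lost their calls. With the numbers crossed in coculture, an alternative chosen after seeing the data, 7082 genes were higher and 3352 lower in EpCAM+ cells of coculture, and 14 and 13 members. With 2 libraries a group and FPKM only, the depth and the source of the spread remain unknown.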

Other observations

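Genes that handle lipid after synthesis, listed by function, also differed between the fractions. Plin2, which coats lipid droplets, was at 499 and 495.1 FPKM in EpCAM+ and 30.0 and 29.3 FPKM in EpCAM- cells of monoculture, and at 367 and 366.6 FPKM in EpCAM+ and 71.1 and 71.3 FPKM in EpCAM- cells of coculture, with log2 fold changes of 4.02 and 2.35 (limma). Of 10 glycerolipid genes tested, 4 were higher and 2 lower in EpCAM+ cells of monoculture, and 6 and 2 in coculture. Among all genes tested, 55.4% were higher and 32.4% lower in monoculture, and 59.2% and 28.0% in coculture. Agpat2 and Lpin2, enzymes of phosphatidate and diacylglycerol formation, were higher in both (0.55 and 0.97, and 0.44 and 0.46), and Gpam, the first acyltransferase of the route, was lower (-0.94 and -0.63). Slc27a1, a fatty acid transporter, was higher (1.88 and 2.94), while Fabp3, a fatty acid carrier, and Pparg, the nuclear receptor that drives fat storage, were lower (-2.32 and -2.38, and -1.78 and -1.73). Of 14 genes of fatty acid uptake and oxidation, 11 fell and 1 rose in EpCAM+ cells of monoculture against coculture, whereas 1 fell and 9 rose in EpCAM- cells. Of all genes tested, 34.9% fell and 16.4% rose in EpCAM+ cells, and 30.3% fell and 32.4% rose in EpCAM- cells. Cpt1a, which gates entry of fatty acids into mitochondria, had 6.81 and 6.91 FPKM in monoculture, against 11.7 and 11.1 FPKM in coculture, in EpCAM+ cells, and 22.7 and 24.3 FPKM, against 8.96 and 9.68 FPKM, in EpCAM- cells.

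Of 10 genes of SREBP processing and sterol uptake, 7 were lower and 2 higher in EpCAM+ cells of each culture, where 32.4% of all genes tested were lower in monoculture and 28.0% in coculture. The lysosomal genes Lipa, which frees cholesterol from its esters, and Npc2, which passes it on, had log2 fold changes of -2.48 and -1.80 in monoculture and -1.60 and -1.06 in coculture, and Tmem97, a sterol-regulated membrane protein, had -0.36 and -0.76. Soat1, which esterifies cholesterol, stood at 6.22 and 6.04 FPKM in EpCAM+ and 21.2 and 22.2 FPKM in EpCAM- cells of monoculture. The oxysterol receptor Nr1h2 was higher in EpCAM+ cells of both cultures (0.45 and 0.77), and Mylip, a ubiquitin ligase induced by such receptors, had -0.48 in monoculture and 0.21 in coculture. Of the 6 genes of sterol efflux and storage tested, 2 were higher and 3 lower in monoculture, and 3 and 2 in coculture. Among all genes tested, 55.4% were higher and 32.4% lower in monoculture, and 59.2% and 28.0% in coculture.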
